A study of Mus musculus with 20 samples.

Results

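The 9 crystallin genes described here are Cryaa, Cryab, Cryba1, Cryba2, Cryba4, Crybb1, Crybb2, Crybb3 and Crygs, out of 35006 genes counted in 20 mouse retinal libraries. They were selected on measured values: all 9 stood far higher in 1 library, replicate 1 of the old mice given NACET, than in the others, and that library was set apart for the same reason. Its crystallin levels are therefore given as a description without a test, and the groups are described and compared over the other 19 libraries.

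Retinal polyA RNA came from wild-type mice of the inbred strain C57BL/6J, and 1 retina of each was sequenced. NACET, the ethyl ester of N-acetylcysteine and a cell-permeable cysteine donor, was supplied with the drinking water over 5 days, for an intake of 50 mg/kg per day, and controls received none. Young controls (n = 4) were 119 days old, 2 labelled male and 2 female, and old controls (n = 4) were 668 days old and labelled male. Young NACET mice (n = 6) were 129 days old (replicates 1 to 4, male) or 119 days old by title (replicates 5 and 6, female), with 129 days in the batch tag of replicate 6. Old NACET mice (n = 6), all labelled male, were 668 days old (replicates 1 and 2), 581 days (replicates 3 and 4) or 574 days (replicates 5 and 6).

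Crystallins are the abundant water-soluble proteins that make the lens transparent and refractive. The α-crystallins, encoded by Cryaa and Cryab, belong to the small heat shock proteins and act as chaperones that hold unfolding proteins in solution, whereas β- and γ-crystallins are structural proteins sharing a fold built of Greek key motifs. Lens crystallin genes are driven by factors such as PAX6, the MAF family, PROX1 and SOX proteins. Several crystallins are also made outside the lens, and αB-crystallin in particular is found in retina, brain and muscle, where it responds to stress.

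By the annotation of the mm9 build, all 9 are protein-coding genes, and counts were taken over their exons. Cryaa lies on chr17:31814878-31818667 and Cryab on chr9:50560863-50564738. Among the β-crystallins, Cryba1 lies on chr11:77532117-77538785, Cryba2 on chr1:74936508-74939717, and 2 neighbouring pairs share chromosome 5: Cryba4 (chr5:112675513-112681538) with Crybb1 (chr5:112684835-112698605), 3296 bases apart, and Crybb2 (chr5:113487278-113499137) with Crybb3 (chr5:113504859-113510604), 5721 bases apart. Crygs lies on chr16:22805276-22811483. Cryab starts 403 bases from the oppositely oriented Hspb2, another small heat shock gene, and the counting did not use strand.

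The 120 bases upstream of the annotated start are shown for 5 members, because 3 of them carry a MAF recognition core that runs into an antioxidant response element core. NACET is studied as an activator of NRF2, the factor that binds that element together with small MAF proteins. Sequences are from RefSeq on GRCm38.p6, 5′ to 3′ on the gene's strand: Cryaa chr17:31677811-31677930 (+), Cryba1 chr11:77725294-77725413 (-), Crybb1 chr5:112255700-112255819 (+), Crygs chr16:22811411-22811530 (-) and Crybb2 chr5:113070118-113070237 (-). Capitals mark matches on either strand to the MAF recognition core TGCTGA, the antioxidant core TGACNNNGC or the TATA box TATAAA.
Cryaa: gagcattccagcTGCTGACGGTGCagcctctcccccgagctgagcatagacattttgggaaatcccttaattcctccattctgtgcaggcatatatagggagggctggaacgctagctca
Cryba1: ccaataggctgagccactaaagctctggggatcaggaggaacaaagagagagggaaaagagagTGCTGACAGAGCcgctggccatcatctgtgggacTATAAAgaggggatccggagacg
Crybb1: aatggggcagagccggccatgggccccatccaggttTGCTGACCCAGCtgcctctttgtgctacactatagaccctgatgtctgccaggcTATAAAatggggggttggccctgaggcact
Crygs: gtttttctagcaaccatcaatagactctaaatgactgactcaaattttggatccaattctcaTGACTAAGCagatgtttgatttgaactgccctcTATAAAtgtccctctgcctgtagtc
Crybb2: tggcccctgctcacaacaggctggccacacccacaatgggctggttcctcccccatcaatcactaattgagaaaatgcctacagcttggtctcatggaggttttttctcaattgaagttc

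An upstream stretch of 250 bases was found for 8 of the 9 members, and the following counts refer to that length. TGCTGA was present in 7 of the 8, against 16.1% of 32851 mouse promoters of the same length. TGACNNNGC was present in 5 of 8 (10.2% of all promoters) and TATAAA in 3 of 8 (12.4%). The TGA of TGCTGA can be the first bases of TGACNNNGC, so the matches are not separate. The joined site TGCTGACNNNGC, searched after these matches had been seen, occurred in Cryaa, Cryba1 and Crybb1, beginning 108, 57 and 84 bases before the start, and in 0.247% of all promoters. Crygs held a TGACNNNGC match 58 bases before the start, apart from any TGCTGA match. Crybb2 had no match to these 3 motifs, and the heat shock element GAANNTTC was absent from all 8 (6.69% of all promoters). These are matches of letters and not measured binding sites.

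Total gene counts were 17.7 to 31.1 M per library (M, 1e+06 counts). In CPM (counts scaled to 1e+06 gene counts per library), the 3 counts that a count of 0 allows amount to 0.0965 to 0.169 CPM. Old control replicate 4 was labelled male but had 59555 Xist counts and 1 count on Y-linked genes. Rod markers were abundant in all 20 libraries: the sum of Gnat1, Pde6b, Sag, Nrl and Cnga1 was 25410 CPM in old NACET replicate 1 and 26530 to 37300 CPM in the others. Markers of the cornea and conjunctiva (8 genes) differed widely, from 3.21 to 596 CPM, and were highest in old control replicate 2. In such bulk samples, fewer cells of a type and less RNA per cell cannot be told apart.

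In old NACET replicate 1, the 9 members took 1.31% of all gene counts (95% exact binomial interval 1.30% to 1.32%). In the other 19 libraries they took 0.00193% to 0.00492%, with a median of 0.00242%. Cryaa was highest, with 4895 CPM, followed by Crybb2 with 3853 CPM and Cryba1 with 1189 CPM. Every member exceeded its highest level among the other 19 libraries in this library. The ratio to that highest level was 795 for Cryba1, 608 for Crygs, 607 for Crybb2, 584 for Cryba4, 444 for Cryba2, 404 for Cryaa, 345 for Crybb1 and 108 for Crybb3. It was lowest for Cryab, at 37.6, the member with the highest level elsewhere. For all members but Cryab that highest level was in old control replicate 4, so the order of these ratios depends on that library. Relative to the median of the other 19 libraries, Cryaa was 24920, Crybb1 675, Crybb3 217 and Cryab 42.7 times as high. That median was only 0.196 CPM for Cryaa, and for the remaining members it was too low for a ratio.

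**Figure D1:**
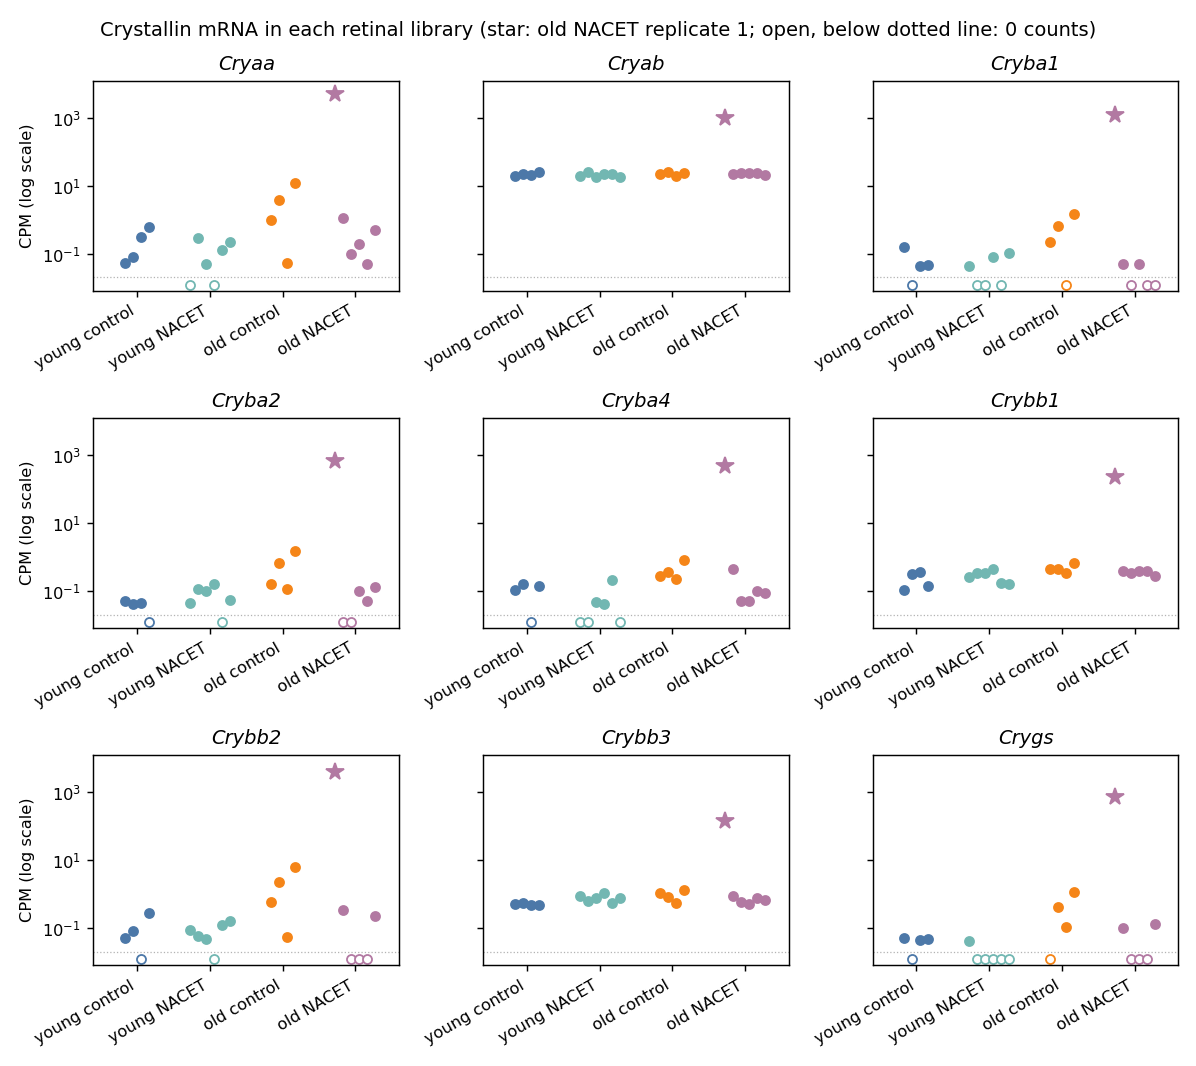
CPM (log scale) of the 9 crystallin genes in each of the 20 libraries, by group; the star is old NACET replicate 1 and open symbols under the dotted line are libraries with 0 counts. Cryab stayed between 17.9 and 25.4 CPM in 19 libraries, whereas Cryaa and Crybb2 spread upwards in the old controls.

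Per kilobase of exon the order of the members also differed. In old NACET replicate 1, Cryaa reached 4127 RPKM (CPM per kilobase of exon), Crybb2 1915 RPKM, Crygs 999 RPKM and Cryab 805 RPKM, and Crybb3 was lowest at 61.4 RPKM. In the median of the other 19 libraries Cryab led with 18.9 RPKM, and Crybb1, Crybb3 and Cryaa followed at 0.340, 0.283 and 0.166 RPKM. The ranges of these 3 over the 19 libraries overlapped, and only Cryab, at 15.1 to 21.4 RPKM, stood above all the others in every one. Outside the set-apart library, Crygs had a median of 0 RPKM.

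Other lens genes were high in the same library. Of 10498 genes with at least 10 CPM in old NACET replicate 1, 32 were over 10 times their highest level in the other 19 libraries, and these included all 9 members and 8 listed lens markers that are not crystallins. Mip, the aquaporin of lens fibres, was at 177 CPM against at most 0.193 CPM elsewhere. The fibre membrane gene Lim2 was at 101 CPM against at most 0.113 CPM. The beaded filament genes Bfsp1 and Bfsp2 were at 220 and 181 CPM against at most 0.577 and 1.09 CPM. Lgsn, Lctl, Grifin and the lens connexin gene Gja3 completed the 8. Among the other non-crystallin genes with high ratios, Wnt7b, Nid1 and Tmem40 were 23.1, 27.5 and 36.7 times their highest level elsewhere, and Gm5607, Gm11837 and Gm17292 were also over 10 times.

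Not every lens gene followed. Lenep had 1 count in old NACET replicate 1, and Hsf4 and Tdrd7, which are also expressed in retina, were 1.30 and 1.00 times their highest level elsewhere. Among regulators, Maf was at 34.4 CPM against at most 13.9 CPM, and Pitx3 and Foxe3 were at 3.15 and 1.24 CPM against at most 0.103 and 0.0491 CPM. Pax6, at 309 CPM, lay within the 216 to 323 CPM of the other libraries. The intermediate filament gene Vim, expressed by lens and Muller glia, was at 277 CPM against at most 98.6 CPM, whereas the Muller glial enzyme gene Glul, at 1691 CPM, lay below its highest value of 1793 CPM. The small heat shock gene Hspb1 was at 11.0 CPM against at most 2.85 CPM, and Hspb2, next to Cryab, at 2.15 CPM against at most 0.623 CPM.

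The other γ-crystallins were divided. Crygb, Crygc and Crygd were at 13.2, 18.9 and 12.5 CPM in old NACET replicate 1 and had 0 counts in each of the other 19 libraries. Cryge had 0 counts in all 20 libraries, Cryga had 0 counts in old NACET replicate 1 and at most 0.0976 CPM elsewhere, and Crygf had 4 counts in the set-apart library and 0 elsewhere. These genes are related copies of one another. Reads fitting several of them were set aside by the counter, so their levels and their order are uncertain.

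**Figure D2:**
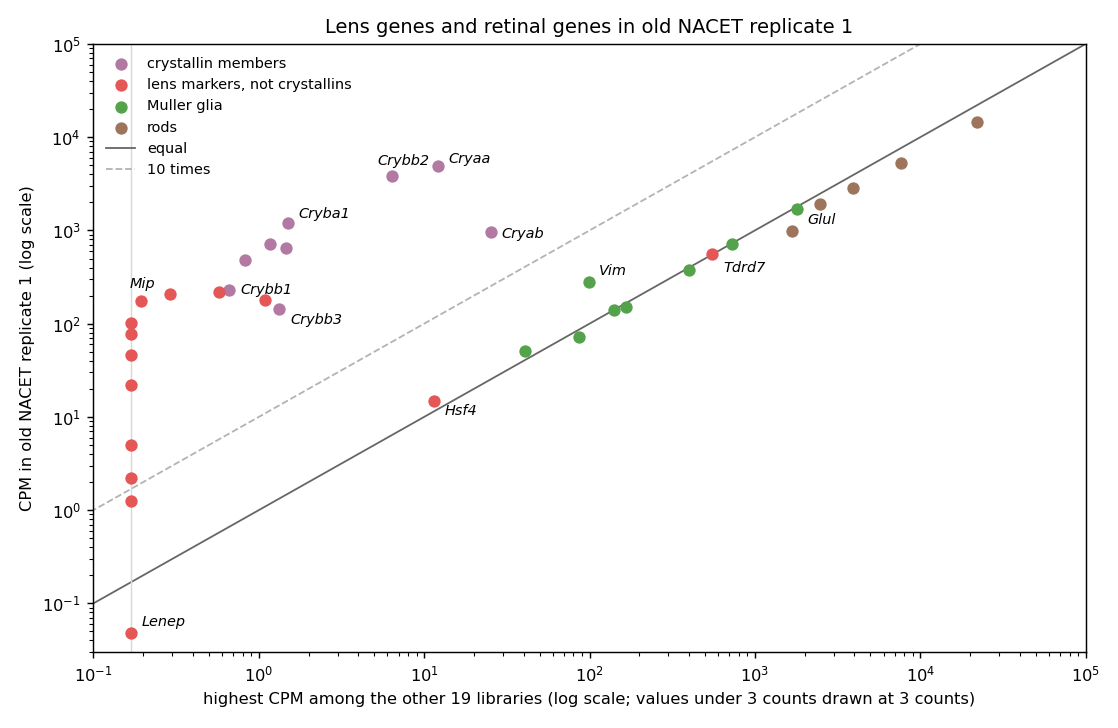
CPM in old NACET replicate 1 (vertical, log scale) against the highest CPM among the other 19 libraries (horizontal, log scale) for the crystallin members, lens markers, Muller glial genes and rod genes; the lines mark equality and 10 times. All 9 members lie above the dashed line, with Cryaa at 4895 against 12.1 CPM, while the rod genes lie below the line of equality.

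Cryaa had the widest range in CPM among the other 19 libraries. Young controls had 0.0515, 0.0805, 0.305 and 0.605 CPM, and young NACET mice had 0 to 0.283 CPM with a median of 0.0865 CPM. Old controls had 0.979, 3.86, 0.0547 and 12.1 CPM, and the 5 old NACET libraries had 1.11, 0.0976, 0.196, 0.0487 and 0.484 CPM. Old controls 1, 2 and 4 were above every young control, but old control 3 was among the lowest, so the groups overlapped.

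Crybb2, a β-crystallin of the mature lens, had the same libraries at the top. Young controls had 0.0515, 0.0805, 0 and 0.279 CPM, and young NACET mice 0 to 0.162 CPM with a median of 0.0707 CPM. Old controls had 0.598, 2.25, 0.0547 and 6.35 CPM, and old NACET libraries 0.337, 0, 0, 0 and 0.220 CPM. Again old controls 1, 2 and 4 exceeded all young libraries and old control 3 did not.

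Cryba1, Cryba2, Cryba4 and Crygs stayed at or below 1.5 CPM in all 19 libraries and were each highest in old control replicate 4, at 1.5, 1.45, 0.831 and 1.16 CPM. Old control replicate 2 came second for Cryba1, Cryba2 and Crygs, at 0.644, 0.676 and 0.418 CPM, and old NACET replicate 2 came second for Cryba4, at 0.433 CPM. Crygs had 1 count in all over the 6 young NACET libraries. Most values of these 4 genes in the young and old NACET groups were at or below 3 counts, and no difference between those groups could be read at this depth.

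Crybb1 and Crybb3 differed from these in being present in all 19 libraries. Crybb1 averaged 0.228 ± 0.125 CPM in young controls (SD, n = 4), 0.283 ± 0.11 in young NACET (n = 6), 0.470 ± 0.141 in old controls (n = 4) and 0.355 ± 0.0548 in old NACET (n = 5). The ranges of neighbouring groups overlapped. Crybb3 had 0.515, 0.524, 0.479 and 0.465 CPM in young controls. All 6 young NACET libraries lay above these, at 0.541 to 1.08 CPM (median 0.762), in a comparison where edgeR called 0% of all genes. The closest libraries, NACET replicate 5 and control replicate 2, had 13 counts each, so the full separation rests on library size there. Old controls had 1.09, 0.837, 0.547 and 1.33 CPM and old NACET libraries 0.866, 0.585, 0.491, 0.780 and 0.660 CPM, and these 2 groups overlapped.

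Cryab, encoding the stress-responsive chaperone αB-crystallin, was the one member at a steady retinal level. It averaged 21.5 ± 2.68 CPM in young controls (SD, n = 4), 21.0 ± 2.89 in young NACET (n = 6), 22.8 ± 2.36 in old controls (n = 4) and 22.7 ± 1.21 in old NACET (n = 5). All 4 ranges overlapped, and no group differed from another beyond its spread. Its neighbour Hspb2 averaged 0.206 to 0.389 CPM in the same groups.

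**Figure D3:**
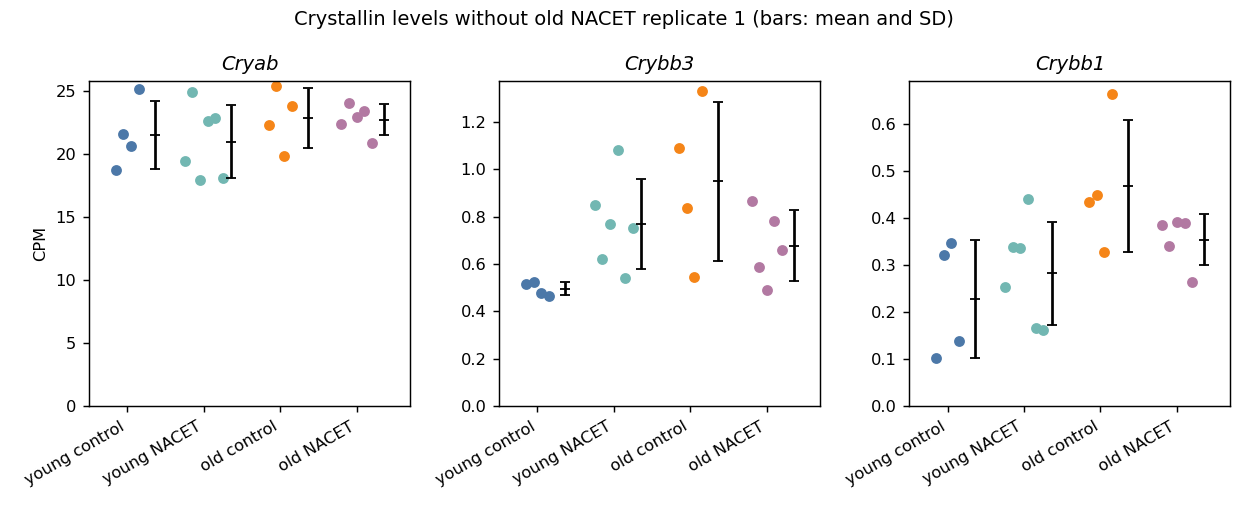
CPM (linear scale from 0) of Cryab, Crybb3 and Crybb1 in the 19 libraries by group, with points for libraries and bars for the mean and SD. Cryab averaged 21.0 to 22.8 CPM in all groups, whereas the 6 young NACET values of Crybb3 lie above the 4 young control values. The closest of these, 0.541 and 0.524 CPM, were 13 counts each.

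Without Cryab, the 8 members summed to 25.4 CPM in old control replicate 4, 9.49 in replicate 2, 3.75 in replicate 1 and 1.42 in replicate 3. Old NACET replicate 2 had 3.27 CPM, and the remaining 14 libraries had 1.07 to 1.98 CPM. The 4 libraries over 3 CPM all came from mice of 668 days, as did the set-apart library. A fit with the age cohort as a covariate is given with the NACET comparison in old mice.

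The mixture of members in the higher old controls could be set against that of old NACET replicate 1. Of the counts of the 8 members, Cryaa made up 40.3% in old NACET replicate 1, 47.7% in old control replicate 4 (95% exact binomial interval 43.7% to 51.8%) and 40.7% in old control replicate 2 (35.0% to 46.5%). Crybb2 made up 31.7%, 25% (21.6% to 28.6%) and 23.7% (19.0% to 29.0%) of them in the same order. Cryba1 made up 9.79%, 5.88% (4.15% to 8.05%) and 6.78% (4.19% to 10.3%). Crybb3, which all retinas contained, made up 1.18% in old NACET replicate 1 but 5.23% and 8.81% in the old controls.

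The lens markers that are not crystallins did not follow the members in old control replicate 4. As a percentage of their level in old NACET replicate 1, the 8 members were at 0.209% there (95% exact Poisson interval 0.193% to 0.226%) and the 8 lens markers at 0.104% (0.0682% to 0.153%). The 8 lens markers summed to 1.08 CPM in that library, within the 0.479 to 1.77 CPM of the other 18 libraries. In each of the other 18 libraries the lens markers stood above the members on this scale, in old control replicate 2 with 0.171% (0.129% to 0.223%) against 0.0781% (0.0695% to 0.0876%). The 8 lens markers were chosen by their level in old NACET replicate 1, to which this scale refers. Of them, Bfsp1 and Bfsp2 had counts in all 19 libraries, with 9 and 8 in old control replicate 4 and 11 and 31 in replicate 2. Their sum thus includes a level found in every library and does not measure lens content alone. Mip had 2 counts in old control replicate 4, 6 in replicate 2 and 0 in replicates 1 and 3. Crygb, Crygc and Crygd had 0 counts in both libraries, which allows up to 0.343% of their level in old NACET replicate 1 for old control replicate 4 (upper bound of the exact Poisson interval). Intervals cover counting error only.

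Markers of the ocular surface were also high in some of these libraries. The corneal and conjunctival list summed to 596 CPM in old control replicate 2 and 68.7 CPM in replicate 4, against 14.4 and 29.4 CPM in replicates 1 and 3. It was as high as 540 CPM in young NACET replicate 4, whose 8 members summed to 1.80 CPM. Old NACET replicate 1 had 31.4 CPM, above 13 of the other 19 libraries and above the other old NACET libraries, which had at most 17.5 CPM. The part of these tissues in the crystallin levels of the old controls was not tested.

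The members other than Cryab correlated positively across the 19 libraries, but mostly not by rank. Over log2 CPM, the 28 pairs without Cryab had Pearson's r of 0.270 to 0.876 (median 0.6), and 18 of them passed an adjusted permutation p of 0.05. By Spearman's rho, which ran from 0.0230 to 0.719, 1 of the 28 passed. The 8 pairs with Cryab had r of 0.0723 to 0.474, and 0 of them passed by either measure. The closest pair was Cryaa with Crybb2, with r = 0.876 (permutation p = 3e-05, adjusted over 36 pairs 0.00108) and Spearman's rho = 0.719 (permutation p = 0.00069, adjusted 0.0248). Without the 2 libraries farthest from the median of Cryaa, old control replicates 2 and 4, its r was 0.671. With the 2 farthest libraries of each pair left out in the same way, the median r of the 28 pairs was 0.245 and the lowest -0.226, so these relations rested largely on few libraries. Values after subtraction of group means gave r = 0.856 for Cryaa with Crybb2. By the same measure r fell from 0.646 to 0.35 for Cryaa with Cryba4 and from 0.39 to -0.062 for Cryba2 with Cryba4. It went from 0.59 to 0.619 for Cryba1 with Crybb3. The permutations ran across groups, so their p-values do not separate likeness within groups from differences between groups.

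**Figure D4:**
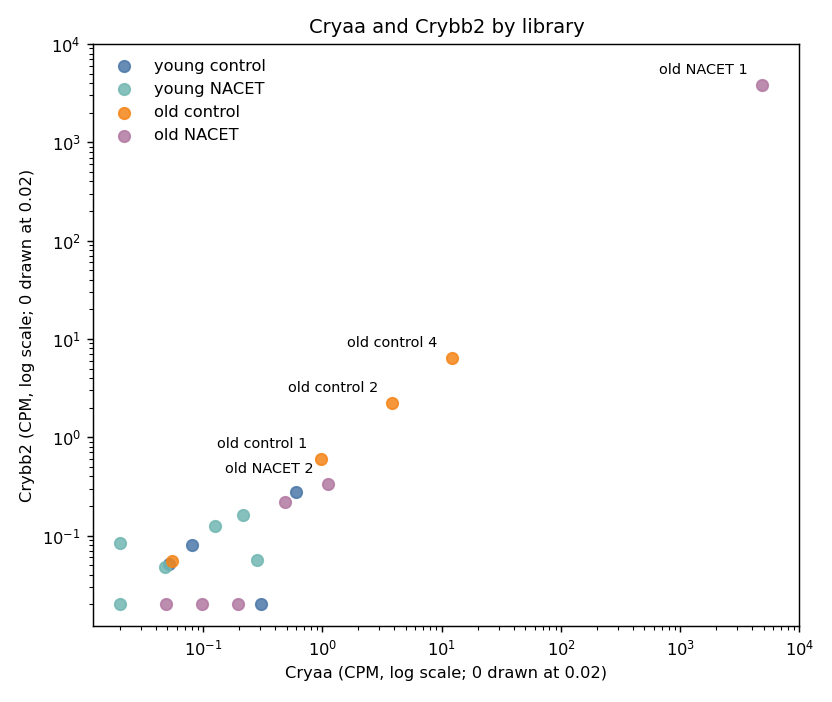
Crybb2 against Cryaa in the 20 libraries (CPM, both axes on a log scale, 0 drawn at 0.02), coloured by group. Old controls 1, 2 and 4 rise from the cloud of the remaining libraries to 12.1 CPM of Cryaa, and old NACET replicate 1 lies far above at 4895 CPM.

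Among 14942 genes with a mean of at least 1 CPM that are no crystallin, the 5 whose log2 CPM was most like Cryab over the 19 libraries were Kif1c (r = 0.866), Clu (r = 0.826), Apoe (r = 0.783), Tnfrsf12a and Ccnd3 (both r = 0.777). Kif1c encodes a kinesin motor, Clu the extracellular chaperone clusterin, and Apoe apolipoprotein E, which glia secrete. The genes most like Cryaa were Pspn (r = 0.818), Apip, Klf12, Cotl1 and Zfp418 (r = 0.701), and those most like the mean of the 9 members were Klf12 (r = 0.809), Slc29a4, Zfp418, Pcp4l1 and Atrnl1 (r = 0.746). For Klf12 the r with the mean of the members was 0.477 without the 2 libraries farthest from the median, and for Kif1c with Cryab it was 0.858. These are the highest of many values and describe likeness over these libraries.

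Old and young controls were compared to see which retinal genes change with age. In an edgeR quasi-likelihood test over all genes, 234 of 16484 genes tested (1.42%) were called at an adjusted p under 0.05. Of the members, 3 passed the filter on low counts and 0 were called, although 2 had an unadjusted p under 0.05, and the median log2 fold change of the 3 was 0.89 against -0.0068 for all genes. Cryaa had a log2 fold change of 4.01 ± 1.10 (SE, edgeR adjusted p = 0.101), and Crybb3 0.89 ± 0.29 (adjusted p = 0.153). For Cryab it was 0.04 ± 0.10 (adjusted p = 0.878). The Cryaa value rested on old controls 2 and 4: without them it was 0.91 ± 0.92 (edgeR adjusted p = 0.803). DESeq2 called 1 member, Crybb2, among 721 of 25098 genes (2.87%), and edgeR without the filter called Cryaa, Cryba2 and Crybb2 among 299 of 25177 (1.19%). Without old control replicate 3, edgeR called Crybb2 among 113 of 16695 genes (0.677%), and with all 4 groups in 1 fit it called Cryaa among 463 of 16949 (2.73%). Crybb2 had at most 6 counts in young controls and Cryba2 at most 1. Neither passed the default filter with all libraries, and their calls by DESeq2 or without the filter rest on old controls where they are high. Without old control replicate 3, Crybb2 passed the filter only through the remaining old controls, where it is high. All these calls of Cryba2 and Crybb2 are therefore a description.

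The comparison of NACET with control in old mice asked whether NACET alters the aged retina. Without old NACET replicate 1, edgeR called 43 of 16482 genes (0.261%) and 0 of the 3 members tested, of which 1 had an unadjusted p under 0.05. The median log2 fold change of the 3 was -0.50, against -0.00045 for all genes. Cryaa had a log2 fold change of -3.49 ± 0.88 (SE, edgeR adjusted p = 0.0866), Crybb3 -0.50 ± 0.26 (adjusted p = 0.389) and Cryab -0.02 ± 0.08 (adjusted p = 0.939). The same 4 old controls enter this comparison and that of age, so the opposite signs of Cryaa, 4.01 and -3.49, share them. With the age cohort as a covariate, where only old NACET replicate 2 shares the 668 days of the controls, Cryaa was at -2.0 ± 1.45 (edgeR adjusted p = 1), and without old controls 2 and 4 at -0.38 ± 0.83 (adjusted p = 0.936). DESeq2 called 354 of 25226 genes (1.4%) and 0 members, and edgeR without the filter called 328 of 25288 genes (1.3%), 4 members among them: Cryaa, Cryba1, Cryba2 and Crybb2. Without old control replicate 1, edgeR called Cryaa among 162 of 16580 genes (0.977%), and without old control replicate 3 it called Cryaa and Crybb2 among 150 of 16609 (0.903%). Crybb2, with at most 7 counts in the old NACET libraries compared, passed the filter there only through the old controls, so its call is a description. Cryba1 and Cryba2 had at most 1 and 3 counts in those NACET libraries. The calls of Cryba1, Cryba2 and Crybb2 without the filter rest on old controls where they are high, and are a description as well.

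Old NACET replicate 1 turned the direction of this comparison. Since the members were selected on that library, the values with it are a description without a test. When it was included, 90 of 16562 genes were called (0.543%), and the 4 members that passed the filter had log2 fold changes of 7.48 (Cryaa), 7.99 (Crybb2), 4.65 (Crybb3) and 2.94 (Cryab). Cryba1, Cryba2, Cryba4, Crybb1 and Crygs did not pass the filter even then, since only 1 library of the group held them at a high level. The mean of Cryaa in the group was 0.387 CPM without and 816 CPM with this library, and that of Cryab 22.7 and 178 CPM.

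**Figure D5:**
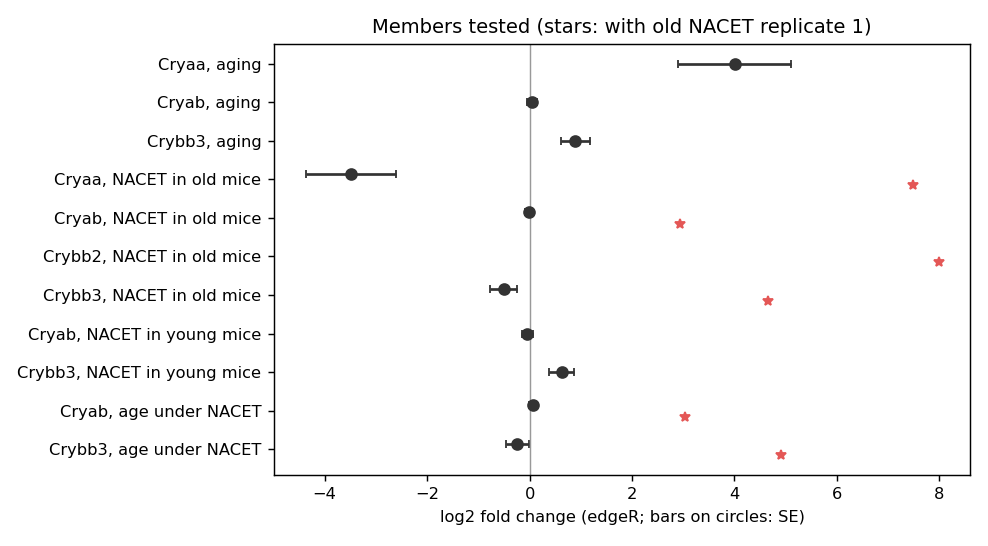
Log2 fold changes from edgeR for the members that passed the filter in each comparison; circles with bars (SE) are fits without old NACET replicate 1, and stars, drawn without bars, are fits with it. Cryaa in old mice moves from -3.49 to 7.48 when the library is included, and Cryab from -0.02 to 2.94.

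In young mice, NACET against control had 0 of 16588 genes called by edgeR (0%), with 724 at an unadjusted p under 0.05, and DESeq2 called 0 as well. Crybb3 had a log2 fold change of 0.62 ± 0.24 (SE, edgeR unadjusted p = 0.0201, adjusted p = 1), higher than all young controls in 6 of 6 NACET libraries, and Cryab -0.05 ± 0.11 (adjusted p = 1). The difference for Crybb3 thus did not pass the correction. Only NACET replicate 5 shared the batch tag of the young controls, so batch tag and treatment were partly confounded. Crybb3 was at 0.541 CPM in that library, against at most 0.524 CPM in young controls. Over 20 alternatives its log2 fold change ran from 0.11 to 0.71.

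Between old and young mice under NACET, 512 of 16357 genes were called (3.13%) without old NACET replicate 1, and 0 of the 2 members tested: Cryab was at 0.07 ± 0.08 (SE, edgeR adjusted p = 0.727) and Crybb3 at -0.24 ± 0.22 (adjusted p = 0.629), with 0 of them at an unadjusted p under 0.05. DESeq2 called 882 genes (3.48%) and 0 members. With old NACET replicate 1, 795 of 16276 genes were called (4.88%), and the log2 fold changes of Cryab and Crybb3 stood at 3.03 and 4.91, given as a description.

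The interaction of NACET with age tested whether its effect differed between old and young mice. By edgeR 0 of 16949 genes were called (0%) without old NACET replicate 1 and 0 of 16993 (0%) with it, with 1016 and 1052 genes at an unadjusted p under 0.05, and DESeq2 called 75 genes (0.285%) without that library, none of them a member. Crybb3 had the lowest p of the 3 members tested, with a log2 difference of -1.13 ± 0.35 (SE, edgeR unadjusted p = 0.00433, adjusted p = 0.387). Cryaa was at -2.16 ± 1.82 (adjusted p = 0.949) and Cryab at 0.02 ± 0.14 (adjusted p = 1).

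Few genes of the lists related to the crystallins were called in the fits without old NACET replicate 1. Over all genes, 0% to 3.13% were called in these 5 comparisons, so few or 0 calls in lists this short are near that share. Of 12 crystallin regulators, 9 passed the filter and 0 were called in any of the 5 comparisons, their median log2 fold change lying at 0.06 for age and 0.08 for NACET in old mice (all genes: -0.0068 and -0.00045). Of 7 small heat shock genes 4 were tested, and of 14 lens markers 2 or 3, and 0 were called in each. Hspb1, another chaperone of that family, had a log2 fold change of 0.64 ± 0.25 with age (edgeR adjusted p = 0.243) and 0.69 ± 0.30 for NACET in young mice (adjusted p = 1).

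Among 5 genes that carry a crystallin name but no lens crystallin role in mice, or belong to the βγ superfamily, 2 were called. Crym, encoding the thyroid hormone binding protein μ-crystallin, averaged 33.7 ± 4.07 CPM in young controls (SD, n = 4), 31.5 ± 1.60 in young NACET (n = 6), 41.6 ± 2.99 in old controls (n = 4) and 45.1 ± 2.54 in old NACET (n = 5). All 9 old libraries were above all 10 young ones (1.42% of genes were called with age in controls and 3.13% under NACET). Under NACET it rose with age by a log2 fold change of 0.47 ± 0.06 (edgeR adjusted p = 1.11e-04), and in controls it had 0.25 ± 0.09 (adjusted p = 0.217). Crybg3 rose with age under NACET by 0.29 ± 0.07 (adjusted p = 0.0245) and had 0.42 ± 0.11 in controls (adjusted p = 0.0784). Cryz, Cryl1 and Aim1 were called in none of the 5 comparisons.

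Of the lists of other tissues and cell types, those of rods, pigment epithelium, skeletal muscle, ciliary body and iris, and blood had 0 genes called in the 5 comparisons without old NACET replicate 1. The share of all genes called there was 0% to 3.13%. Corneal and conjunctival markers had 5 of 6 tested genes lower in old than in young mice under NACET and 0 called in the other comparisons, but their fold changes were large throughout. The median log2 fold change of this list was 3.67 for age and -4.41 for NACET in old mice, beside 4.01 and -3.49 for Cryaa, and it was 3.88 for NACET in young mice and -4.52 under NACET with age. Its keratin gene Krt5 was at -4.50 ± 0.96 for NACET in old mice (SE, edgeR adjusted p = 0.0577). Blood markers had a median of 1.13 for age and -2.34 for NACET in old mice. The part of these lists in the Cryaa values was not tested. Among Muller glial markers, Gfap was higher in old than in young mice under NACET (log2 fold change 0.71 ± 0.16, edgeR adjusted p = 0.0210). In that comparison 3.13% of all genes were called.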

How the data were processed

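PolyA RNA of 20 retinas was counted per gene. The deposited files hold raw counts, which the authors made from single-end TruSeq libraries: TopHat2 2.1.0 with Bowtie aligned reads to mm9, and HTSeq 0.11.2 counted them over exons without strand, in intersection-nonempty mode. The gene annotation they used is not given in the sources used here. Reads set aside per library were 14.1% to 20.5% without a feature, 1.09% to 1.20% ambiguous and 6.65% to 7.92% not uniquely aligned, and a row without a gene name (at most 0.00157%) was left out.

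The groups came from the labels, and each library is 1 retina of a separate mouse per the methods. No 2 libraries of a group were alike within sampling noise: the chi-square of their counts divided by its degrees of freedom was 2.52 to 32.2 in the 42 pairs. CPM are per total gene counts and RPKM per union exon length (GENCODE on mm9). Intervals (95%) and the floor of 3 counts cover counting error only.

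Comparisons used edgeR 4.0.16 in R 4.3.3 (TMM, default filter, quasi-likelihood test, Benjamini-Hochberg adjustment over all genes tested, call at 0.05). The edgeR test was first run on simulated counts with known changes, for the age comparison and with the same dispersion for all genes. That run does not cover genes raised in few libraries. Correlations used log2 CPM with a prior count of 1 and 100000 permutations, two-sided. Alternatives were RLE scaling, no TMM factors, DESeq2 1.42.0, a robust fit, a filter at 1 CPM in place of the default, no filter, each library left out, replicate block, sex, age cohort, all 4 groups in 1 fit and the set-apart library included. The fits without old control replicates 2 and 4 and the joined promoter site were chosen after seeing the data.

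The members and gene lists were chosen with earlier results of these data known. Other genes were named by rule: the 15 non-crystallin genes with the highest ratio in the set-apart library, the 5 most like each of Cryaa, Cryab and the mean of the members, and genes of the lists that were called or that bear on a member. A pair of listed genes was taken out of the lists and is not reported here.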

Additional observations from a re-analysis of the deposited data

Results flagged for a closer look

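Within each group, a library was marked when its gap to the nearest other library took up more of the group's range than Dixon's 95% critical value allows. Chance marks about 1 in 20 groups of normally distributed values, and sparse counts depart from that. Old NACET replicate 1 was left out, since the members were selected on it. Of 36 tests of a member in a group, 4 were marked, and these rest on few counts. Cryba4 in young NACET replicate 5 was at 0.208 CPM (5 counts), above 0.0481 CPM in the nearest library. Cryba4 in old NACET replicate 2 was at 0.433 CPM (9 counts), above 0.0974 CPM among the 5 libraries without replicate 1. Crygs in young control replicate 2 was at 0 CPM while the other 3 libraries had 1 count each, and in young NACET replicate 1 it was at 0.0424 CPM (1 count) while the others were at 0. Old control replicates 2 and 4 were not marked for any member. Where both are raised in a group of 4, each narrows the gap of the other, so the rule can hardly mark them.

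Old NACET replicate 1, which entered none of the main comparisons, also held Crygb at 13.2 CPM (276 counts), Crygc at 18.9 CPM (396 counts) and Crygd at 12.5 CPM (263 counts), where the control libraries had 0 counts.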

How the results depend on the processing

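The count of members called was 0 in all 5 comparisons. For age it became 1 with DESeq2 (Crybb2), 3 without the filter on low counts (Cryaa, Cryba2, Crybb2) and 1 with all 4 groups in 1 fit (Cryaa, adjusted p = 0.0258), and without single libraries it ranged from 0 to 1, the 1 being Crybb2 without old control replicate 3. For NACET in old mice it became 4 without the filter, and without single libraries ranged from 0 to 2: 1 (Cryaa) without old control replicate 1, and 2 (Cryaa, Crybb2) without old control replicate 3. The shares of all genes called in these fits, and the limits on the calls of Cryba1, Cryba2 and Crybb2, are given with the comparisons. In the other 3 comparisons it was 0 under each alternative run. Except where the library or filter left out is itself the change, the cause was not tested.

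Inclusion of old NACET replicate 1 turned Cryaa (7.48), Cryab (2.94) and Crybb3 (4.65) upwards on the log2 scale in old mice, Crybb3 under NACET with age (4.91), and Cryaa (8.80) and Crybb3 (4.01) in the interaction. The remaining reversals concern Cryab, whose fold changes lie close to 0 and, without single libraries, ranged up to 0.118 for age, down to -0.078 for NACET in old mice, down to -0.103 in young mice and up to 0.088 in the interaction. For age it was -0.0046 without young control replicate 1, -0.022 without old control replicate 2 and -0.099 without old control replicates 2 and 4. For NACET in old mice it was 0.044, 0.0051 and 0.0083 without old control replicate 2, old control replicate 4 and old NACET replicate 6, and 0.13 without both old controls. In young mice it was 0.055 with labelled males only, 0.070 with the batch tag as a covariate, 0.033 without young control replicate 4 and 0.0043 without young NACET replicate 3. In the interaction it was -0.075 with labelled males only, and -0.051, -0.024, -0.0052, -0.00095, -0.034 and -0.0030 without young control 4, young NACET 3, young NACET 6, old control 1, old control 3 and old NACET 3.

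The replicate numbers did not pair the samples: same-numbered deviations correlated at -0.159 to 0.123, not above 0.1 in every pair. With the replicate block the members called were 0 in all 5 comparisons, Cryaa being at 3.73 (edgeR adjusted p = 0.0639) for age and -3.29 (edgeR adjusted p = 0.0990) for NACET in old mice. The share of all genes called with the block is not given here.

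Low counts limit 6 of the 9 members: 3 or fewer passed the filter without the set-apart library. Other library sizes moved none of the group means by more than 1 SD, and old NACET replicate 1 moved those of all 9 members in its group. Among old mice, age and treatment were partly confounded: of the 5 old NACET libraries compared, only replicate 2 shared the 668 days of the controls. Among young mice, only NACET replicate 5 shared the batch tag of the controls. Labelled sex was unbalanced in the age comparison, with 2 male and 2 female young controls and 4 old controls labelled male. The alternatives on sex used these labels. They kept old control replicate 4 as male although it had 59555 Xist counts and 1 count on Y-linked genes.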
